A study of Homo sapiens with 8 samples.

Results

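Enzymes that crosslink or modify the extracellular matrix were followed in cultured human prostate cells treated with Pao extract, a bark extract of *Geissospermum vellosii* that is rich in β-carboline alkaloids. The group holds 10 genes that were chosen by name, namely transglutaminase 2 (*TGM2*), the lysyl oxidases *LOX*, *LOXL1*, *LOXL2*, *LOXL3* and *LOXL4*, the lysyl hydroxylases *PLOD1* and *PLOD2*, and the prolyl hydroxylase subunits *P4HA1* and *P4HA2*. All 10 were measured, among 22465 genes in all, and each was represented by 1 probe set. BPH-1 (BPH1 in the labels) is an immortalized line of prostate epithelium that was grown in RPMI1640. WPMY-1 is an immortalized line of prostate myofibroblasts, which are contractile cells of the stroma, and was grown in DMEM. Each line received vehicle or 250 μg/ml Pao extract (PAO in the labels) for 48 h according to the labels, while the methods of the study give a shorter time, and both media held serum, penicillin and streptomycin. There were 2 arrays in each of the 4 groups, and it is not stated whether they came from separate cultures. Where p-values are given, the spread behind them is that of the arrays and may be technical. Each cell type was represented by 1 line, so the line, its cell type and its medium cannot be told apart.

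Collagen chains are hydroxylated on proline and lysine in the endoplasmic reticulum before they fold into a triple helix. Proline hydroxylation, by a tetramer of P4HA subunits with P4HB, keeps the helix stable at body temperature. Lysine hydroxylation by the PLOD enzymes sets which crosslinks can form later. Outside the cell, the copper-dependent lysyl oxidases turn lysine and hydroxylysine of collagen and elastin into aldehydes that condense into crosslinks, and transglutaminase 2 joins glutamine to lysine side chains of proteins such as fibronectin in a calcium-dependent reaction. In the prostate, the matrix is laid down mainly by stromal cells such as fibroblasts and myofibroblasts, and it is known to be remodelled in benign enlargement.

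The values are log2 values after robust multi-array averaging (RMA), which normalizes between arrays. Array medians over all genes lay between 5.62 and 5.79, and replicate arrays had a Pearson r of 0.995 to 0.997. The median of the epithelial markers measured (10 of 12) was 9.48 to 9.62 per array in BPH-1, beside 5.21 to 5.61 in WPMY-1. For stromal markers (11 of 12) it was 5.53 to 5.77 in BPH-1 but 7.30 to 7.81 in WPMY-1, so by these medians each line bore the markers of its label. Single markers of the other type were bright, with a mean of 8.89 for *KRT18* in WPMY-1 and 9.31 for *VIM* in BPH-1. With vehicle, all 10 epithelial markers were still lower and all 11 stromal markers higher in WPMY-1 than in BPH-1 cells. Leukocyte markers (11 of 12), expected in neither line, had medians of 4.48 to 4.73 over both lines, although *CD68* reached a mean of 7.86 in BPH-1. No detection calls were used, and this level is only a rough guide to background. All members lay above it on every array. In such bulk samples, fewer cells of a type and less RNA per cell cannot be told apart.

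**Figure D1:**
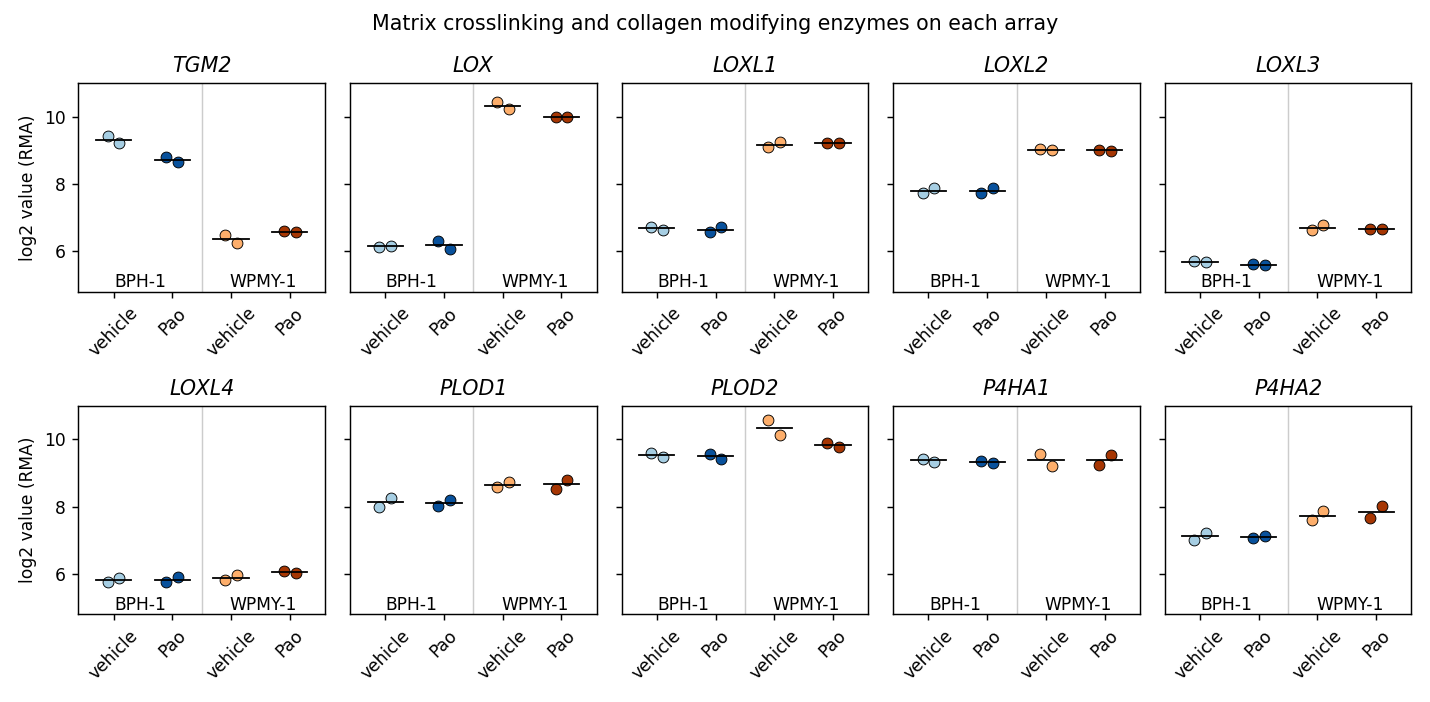
Log2 value after RMA (y axis) of each of the 10 genes on every array, by line and treatment (x axis); each point is 1 array and each bar the mean of 2. *TGM2* was brightest on the BPH-1 arrays, *LOX* and *LOXL1* were brightest on the WPMY-1 arrays, and the *LOX* and *PLOD2* arrays of WPMY-1 cells with Pao extract lay below both vehicle arrays.

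The line was the main source of difference within the group. With vehicle, 7 of the 10 genes were higher in WPMY-1 than in BPH-1 cells at an adjusted p under 0.05 from limma, against a background of 15.3% of all genes, and 1 was lower, against 15.6%. *LOXL4* and *P4HA1* did not pass the test. The median difference of the 10 genes was 0.71 on the log2 scale, beside -0.02 over all genes. The members that were higher came from inside and outside the cell, with 4 of 5 lysyl oxidases and 3 of 4 hydroxylases, while the one that was lower was the transglutaminase.

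*TGM2* ran against the other members. Its log2 values were 9.43 and 9.20 on the BPH-1 vehicle arrays and 6.48 and 6.24 on the WPMY-1 vehicle arrays. The lines were far apart, with every BPH-1 array above every WPMY-1 array. The difference, WPMY-1 minus BPH-1, was -2.96 (SE 0.11), a 7.77-fold lower level in the myofibroblast line (limma, adjusted p = 4.5e-07), and only 60 of the 22465 genes had a lower one. No other member followed its pattern over the 8 arrays, the nearest being *P4HA1* with a Pearson r of -0.07. Among all genes, the patterns most like that of *TGM2* were those of *THBD* (r = 0.997), which encodes thrombomodulin, *ADAMTS9* (r = 0.997), a secreted metalloprotease, and *CSGALNACT1* (r = 0.995), an enzyme of chondroitin sulfate synthesis. These correlations describe 8 arrays that come from only 2 lines, so they carry the difference of the lines.

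*LOX*, the founding lysyl oxidase, had the largest line difference of the group. It read 6.14 and 6.15 on the BPH-1 vehicle arrays and 10.43 and 10.23 on the WPMY-1 vehicle arrays. This is a gap of 4.18 (SE 0.096), or 18.2-fold (limma, adjusted p = 3.2e-08), and 13 genes had a higher one. *LOXL1*, which is needed for the upkeep of elastic fibres, read 6.72 and 6.64 in BPH-1 against 9.10 and 9.24 in WPMY-1 cells. Its difference was 2.48 (SE 0.082), or 5.59-fold (limma, adjusted p = 2.5e-07). The 2 arrays of each group lay close together for both genes, and the lines did not overlap.

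*LOXL2*, *LOXL3* and *LOXL4* share scavenger receptor domains that *LOX* and *LOXL1* lack. *LOXL2* read 7.72 and 7.88 in BPH-1 and 9.04 and 9.00 in WPMY-1 cells with vehicle, a difference of 1.22 (SE 0.080; limma, adjusted p = 1.0e-05). *LOXL3* read 5.70 and 5.68 against 6.62 and 6.78, a difference of 1.02 (SE 0.073; limma, adjusted p = 1.7e-05). Its BPH-1 values lay about at the array medians. *LOXL4* was the one lysyl oxidase without a line difference that passed the test, and with vehicle it lay about at the array medians in both lines. Its values of 5.76 and 5.87 in BPH-1 and 5.82 and 5.95 in WPMY-1 cells overlapped, and the difference of 0.07 had a 95% interval from -0.12 to 0.27 (limma, adjusted p = 0.58). *LOX*, *LOXL1*, *LOXL2* and *LOXL3* had similar profiles over the 8 arrays, with r of 0.994 between *LOX* and *LOXL1*, 0.995 between *LOXL1* and *LOXL2* and 0.995 between *LOXL1* and *LOXL3*. These values too carry the difference of the lines and do not describe the response to Pao extract.

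Of the lysyl hydroxylases, *PLOD1* acts on the helix of collagen and *PLOD2* on its telopeptides, the short ends where crosslinks form. *PLOD2* read 9.60 and 9.47 on the BPH-1 vehicle arrays and 10.59 and 10.12 on the WPMY-1 vehicle arrays. The lines were apart, though the WPMY-1 arrays differed from each other by more than those of any other group of this gene. The line difference was 0.82 (SE 0.14; limma, adjusted p = 0.0026). *PLOD1* read 8.00 and 8.25 against 8.57 and 8.73, a difference of 0.53 (SE 0.12; limma, adjusted p = 0.012). Without replicate 1 of the BPH-1 vehicle arrays this value was 0.40 (adjusted p = 0.080), and without replicate 2 of the WPMY-1 vehicle arrays 0.45 (adjusted p = 0.068), so the call for *PLOD1* rested on these arrays.

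*P4HA1* and *P4HA2* encode alternative catalytic subunits of collagen prolyl 4-hydroxylase. *P4HA2* read 7.02 and 7.22 in BPH-1 and 7.61 and 7.86 in WPMY-1 cells with vehicle, a difference of 0.61 (SE 0.13; limma, adjusted p = 0.0077). This call too was lost without replicate 1 of the BPH-1 vehicle arrays (0.51, adjusted p = 0.054) or replicate 2 of the WPMY-1 vehicle arrays (0.49, adjusted p = 0.0501). *P4HA1* read 9.41 and 9.34 against 9.57 and 9.20. The WPMY-1 arrays lay on either side of the BPH-1 arrays, and the difference of 0.01 had an interval from -0.30 to 0.31 (limma, adjusted p = 0.98). *P4HB*, the partner subunit, was also close in the lines, at 10.02 and 9.96 (limma, adjusted p = 0.58).

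**Figure D2:**
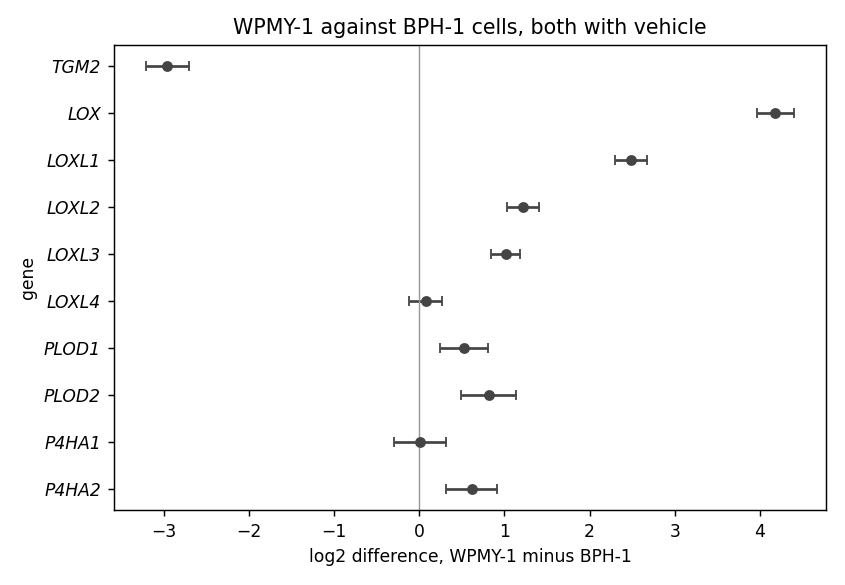
Difference of the mean log2 values, WPMY-1 minus BPH-1 with vehicle (x axis), for each of the 10 genes (y axis), with 95% intervals from limma. The interval of *TGM2* lies wholly below 0, from -3.21 to -2.71, those of *LOXL4* and *P4HA1* cross 0, and the other 7 lie above 0.

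Other genes of the pathway were read from 5 lists of enzymes, chaperones, substrates and transporters, with 50 of 51 genes measured. With vehicle, 25 were higher and 5 lower in WPMY-1 cells by the same test, beside 15.3% and 15.6% of all genes. These 2 shares are also the background for the counts of each list below. Of 14 genes for hydroxylation and folding of collagen in the endoplasmic reticulum, 8 were higher and 1 lower, with a median difference of 0.29. The collagen chaperone *SERPINH1* was higher by 1.30 on the log2 scale, the prolyl 3-hydroxylase *P3H1* by 1.29 and the prolyl isomerase *FKBP14* by 1.06. The related prolyl 3-hydroxylase *P3H2* went the other way, from 8.50 in the BPH-1 line to 6.99 in the WPMY-1 line, a difference of -1.51. *PLOD3*, the remaining lysyl hydroxylase, was higher by 0.53 (adjusted p = 0.012) and *P4HA3* by 0.31 (adjusted p = 0.023), the latter from a mean of 4.71 that is near background.

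Of 11 genes of procollagen processing and fibril assembly, 7 were higher and 3 lower in WPMY-1 cells. The procollagen N-proteinase *ADAMTS2* was higher by 1.29. The small proteoglycans *LUM* and *DCN*, which bind collagen fibrils, were higher by 1.85 and 1.39, but from means of 2.43 and 3.35 in BPH-1 cells that lie below the leukocyte marker level, and *LUM* at 4.27 and *DCN* at 4.74 in WPMY-1 cells were still near it. *TLL1* and *TLL2*, relatives of the procollagen C-proteinase BMP1, were lower by this test at -0.81 and -0.78, and the fibril-binding *FMOD* at -0.52.

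Among 10 substrates and partners of the lysyl oxidases, 7 were higher and none was lower, with a median of 0.73. Periostin (*POSTN*), a matrix protein that binds BMP1 and thereby aids LOX activation, had the largest difference of any gene on these lists, with 2.97 in the BPH-1 line, below the leukocyte marker level, and 7.75 in the WPMY-1 line. Fibrillin-1 (*FBN1*) was higher by 3.70, *EFEMP2*, which brings pro-LOX to elastin, by 2.61, and fibronectin (*FN1*), which is also on the stromal marker list, by 1.88. Elastin itself (*ELN*) read 6.14 and 6.04 and did not pass (adjusted p = 0.32). None of the 8 other transglutaminases passed in either direction, with differences from -0.22 to 0.02. *TGM2* was thus the only one of its family with a line difference that passed the test. Most of the others were near or below the leukocyte marker level in both lines, with BPH-1 vehicle means from 2.20 (*F13B*) to 5.64 (*TGM6*). Near background, a line difference could hardly be seen. Of 7 genes that supply copper, ascorbate or iron, *SLC39A14*, *SLC31A1* and *ATP7A* were higher by 1.14, 0.41 and 0.30 and *SLC23A2* had a difference of -0.25. SLC31A1 takes up copper and ATP7A delivers it to enzymes of the secretory route such as the lysyl oxidases.

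**Figure D3:**
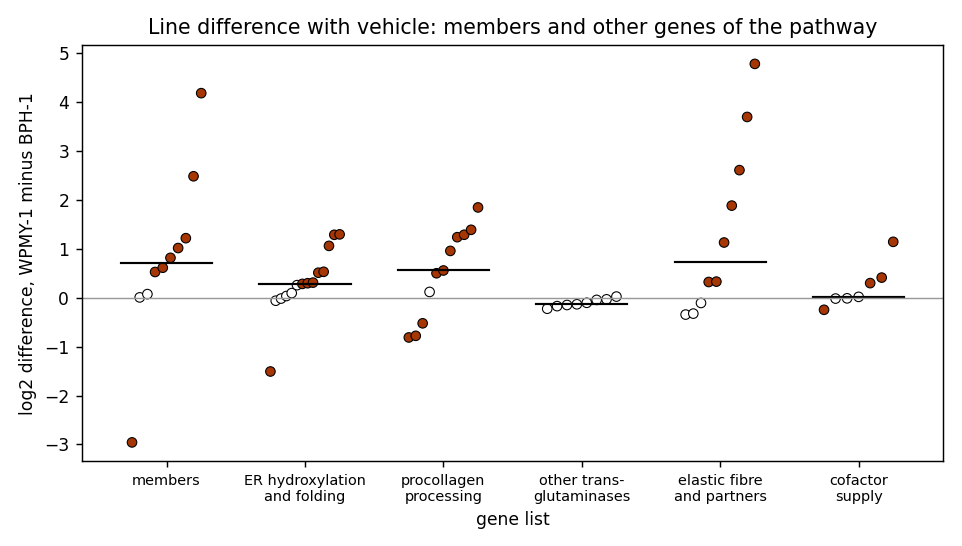
Difference of the mean log2 values, WPMY-1 minus BPH-1 with vehicle (y axis), for the 10 genes and the other genes of the pathway by list (x axis); filled points passed limma's test, open points did not, and bars are list medians. The 10 genes and the elastic fibre list reach the highest values, up to 4.18 and 4.78, while the 8 other transglutaminases stay between -0.22 and 0.02.

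The second question was whether Pao extract shifted these genes. In BPH-1 cells none of the 10 passed an adjusted p of 0.05 from limma. The background there was 0.0% of all genes, although 510 genes lay higher and 417 lay lower when p under 0.05 was taken without adjustment. Among the members only *TGM2* did so (limma, unadjusted p = 0.00057). It read 9.43 and 9.20 with vehicle and 8.81 and 8.64 with Pao extract. All arrays of treated cells lay below those of vehicle-treated cells, by more than the arrays of either group differed from each other. The mean difference was -0.60 (SE 0.11, 95% interval -0.85 to -0.34), that is, a 1.51-fold lower level (limma, adjusted p = 0.76), and 8 of the 22465 genes had a lower one. *TGM2* was the only member past a 1.4-fold limit, a size reached downward by 0.0623% of all genes. Leaving out 1 BPH-1 array at a time gave differences from -0.71 to -0.48. Of the 10 epithelial markers 5 lay below 0 in the same comparison, with a median difference of -0.02, and none passed the test.

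The other 9 members showed differences between -0.08 and 0.04 in BPH-1 cells, and their 95% intervals together ran from -0.37 to 0.28. *LOX* read 6.14 and 6.15 with vehicle and 6.29 and 6.07 with Pao extract, with the treated arrays on either side. *PLOD2* read 9.60 and 9.47 with vehicle and 9.56 and 9.43 with Pao extract, and these overlapped as well. No member had both treated arrays above both vehicle arrays, against 14.4% of all genes. *TGM2* and *LOXL3* had both below, against 18.8%, and for *LOXL3* the difference was only -0.08 (5.70 and 5.68 with vehicle, 5.63 and 5.58 with Pao extract). The median over the 10 genes was -0.03, beside -0.01 over all genes.

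In WPMY-1 cells none of the 10 passed the test either, where the background was 0.0668%, or 15 genes. Without adjustment, p was under 0.05 for *LOX* (0.0067) and *PLOD2* (0.0070), as for 1463 higher and 1049 lower genes in all. The lowest value was that of *PLOD2*, the telopeptide lysyl hydroxylase. It read 10.59 and 10.12 with vehicle and 9.91 and 9.79 with Pao extract. The treated arrays lay below both vehicle arrays, but the vehicle arrays differed by 0.47 from each other. The difference of the means was -0.51 (SE 0.14, 95% interval -0.83 to -0.18; limma, adjusted p = 0.33), with 127 genes lower. It was the only member past 1.4-fold, which 0.632% of all genes reached downward. When the values were quantile normalized again, the *PLOD2* difference was -0.41, short of that limit. Without replicate 1 of the vehicle arrays the difference was -0.27, and without replicate 2 it was -0.74, so its size depended on the vehicle array used.

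*LOX* read 10.43 and 10.23 with vehicle and 9.99 and 9.98 with Pao extract in WPMY-1 cells. Here the treated arrays were nearly equal and both lay below the vehicle arrays. The difference was -0.34 (SE 0.096, 95% interval -0.56 to -0.12; limma, adjusted p = 0.33), and it was -0.24 without replicate 1 and -0.44 without replicate 2 of the vehicle arrays. Treated WPMY-1 cells thus kept a *LOX* level far above that of BPH-1 cells with vehicle (6.14 and 6.15). The same vehicle arrays enter the line difference and the Pao difference, and for both *LOX* and *PLOD2* replicate 1 of the WPMY-1 vehicle arrays was the brightest of all 8.

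The stromal markers of WPMY-1 cells mostly lay on the same side as *LOX* and *PLOD2* after Pao extract. Of the 11 measured, 10 had a Pao difference below 0, beside 9026 of all 22465 genes. For 6 both treated arrays lay below both vehicle arrays, beside 16.6% of all genes. None of the 11 passed the test (lowest adjusted p from limma 0.14). Their median difference was -0.30, and it was -0.34 without replicate 1 and -0.39 without replicate 2 of the vehicle arrays. The log2 values summed over the 11 markers were 88.3 and 88.2 on the vehicle arrays and 86.2 and 85.1 on the treated arrays, so the groups did not overlap. Leukocyte markers had a median difference of 0.05 and endothelial markers of 0.12. In BPH-1 cells 9 of the 11 stromal markers also lay below 0, beside 12806 of all 22465 genes, with a median of -0.08. There 4 had both treated arrays below both vehicle arrays, beside 18.8% of all genes. The leukocyte markers, expected in neither line, shifted the same way in that line. All 11 had a negative difference (median -0.07), and for 7 both treated arrays were lower than both vehicle arrays. Of the 7 endothelial markers 5 had a negative difference, and their median was -0.05. The lower values in the epithelial line were thus not particular to the stromal markers. The part of these markers in the values of *LOX* and *PLOD2* was not tested.

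*TGM2* read 6.48 and 6.24 with vehicle and 6.60 and 6.56 with Pao extract in WPMY-1 cells. Both treated arrays were the brighter ones, opposite to BPH-1, with a difference of 0.22 (SE 0.11, 95% interval -0.03 to 0.48; limma, adjusted p = 0.47). This was 0.34 without replicate 1 of the vehicle arrays and 0.10 without replicate 2. *LOXL4* read 5.82 and 5.95 with vehicle and 6.08 and 6.03 with Pao extract, a difference of 0.16 (limma, adjusted p = 0.49). *TGM2* and *LOXL4* were thus the 2 members that had both treated arrays above the vehicle arrays, where 27.0% of all genes did, while *LOX* and *PLOD2* had both below, where 16.6% did.

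The remaining 6 members, *LOXL1*, *LOXL2*, *LOXL3*, *PLOD1*, *P4HA1* and *P4HA2*, had differences between -0.04 and 0.10 in WPMY-1 cells, and the treated and vehicle arrays of each overlapped. *LOXL1* read 9.10 and 9.24 with vehicle and 9.22 and 9.21 with Pao extract. *P4HA1* read 9.57 and 9.20 with vehicle and 9.25 and 9.54 with Pao extract, so its arrays differed more within a group than between the groups. Over the 10 genes the median was 0.01, beside 0.03 over all genes. None of the 50 other pathway genes passed the test in either line. The largest differences among them in WPMY-1 cells were those of *POSTN* (-0.79, adjusted p = 0.41), *FN1* (-0.37, adjusted p = 0.35) and *FBN1* (-0.28, adjusted p = 0.27), and the treated arrays of each lay below both vehicle arrays. Of the 50 genes, however, 29 had a difference above 0 and 21 below 0 in that line. Both treated arrays lay above the vehicle arrays for 9 and below them for 5, beside 27.0% and 16.6% of all genes.

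**Figure D4:**
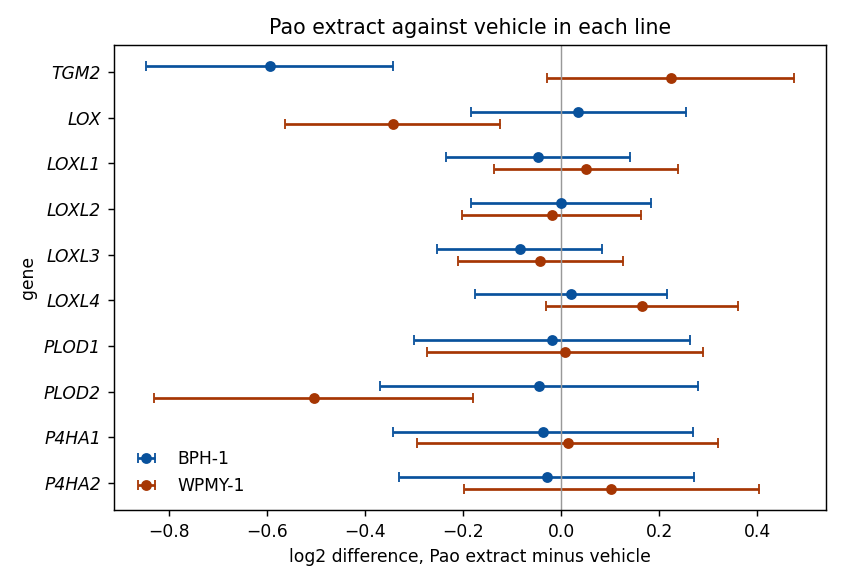
Difference of the mean log2 values, Pao extract minus vehicle (x axis), for each of the 10 genes (y axis) in BPH-1 (blue) and WPMY-1 cells (red), with 95% intervals from limma. The interval of *TGM2* in BPH-1 and those of *LOX* and *PLOD2* in WPMY-1 cells lie below 0, and all others cross 0; none of these differences passed the adjusted threshold.

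Whether Pao extract acted differently in the lines was tested as the difference of its effects, WPMY-1 minus BPH-1. No member passed limma's test, with a background of 0.0%, and without adjustment p was 0.00069 for *TGM2*, 0.022 for *LOX* and 0.050 for *PLOD2*. *TGM2* had the largest value, 0.82 (SE 0.16, 95% interval 0.46 to 1.18, adjusted p = 0.56), and 7 genes had a higher one. It was 0.70 to 0.94 when single arrays were left out. *TGM2* was also the only member whose treated arrays lay below the vehicle arrays in BPH-1 and above them in WPMY-1 cells. This pattern held for 5.51% of all genes. On the pathway lists, *TGM6* (-0.16 in the epithelial line, 0.08 in the myofibroblast line) and *ATOX1* (-0.05 and 0.06) also showed it. A Pao difference below 0 was seen for 7 of the 8 other transglutaminases in the epithelial line. In the myofibroblast line all 8 lay above 0. The difference of the effects was above 0 for all 8, with a median of 0.12 beside 0.04 over all genes. None of them passed the test, and most lay near or below the leukocyte marker level. For *PLOD2* the difference of the effects was -0.46 (95% interval -0.92 to 0.00, adjusted p = 0.69) and for *LOX* -0.38 (95% interval -0.69 to -0.07, adjusted p = 0.69), while the other 7 members lay between -0.02 and 0.14.

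*LOX*, *PLOD2* and *P4HA1* are known targets of the hypoxia-inducible factors, and the bases before their start sites are shown as background on these genes. The promoters of 8 of the 10 genes were taken by symbol from RefSeq (GRCh38.p14), as the 250 bases before the start. Capitals mark the core of the hypoxia response element, searched as ACGTG and GCGTG on both strands, which reads CACGT or CACGC where it lies on the opposite strand; ACGTG is also part of the E-box CACGTG. All 3 genes lie on the minus strand, at chr5:122078260-122078509 for *LOX* (1 of 3 listed starts), chr3:146161185-146161434 for *PLOD2* and chr10:73096867-73097116 for *P4HA1*.
LOX promoter: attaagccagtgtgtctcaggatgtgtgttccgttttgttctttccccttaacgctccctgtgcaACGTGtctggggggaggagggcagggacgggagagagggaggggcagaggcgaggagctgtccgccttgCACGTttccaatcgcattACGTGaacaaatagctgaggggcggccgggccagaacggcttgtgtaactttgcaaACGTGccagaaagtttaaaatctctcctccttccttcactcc
PLOD2 promoter: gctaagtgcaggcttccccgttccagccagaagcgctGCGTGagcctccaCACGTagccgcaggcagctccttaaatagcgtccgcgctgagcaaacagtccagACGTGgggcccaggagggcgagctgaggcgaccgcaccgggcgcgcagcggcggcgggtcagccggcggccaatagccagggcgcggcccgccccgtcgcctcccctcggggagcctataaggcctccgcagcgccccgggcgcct
P4HA1 promoter: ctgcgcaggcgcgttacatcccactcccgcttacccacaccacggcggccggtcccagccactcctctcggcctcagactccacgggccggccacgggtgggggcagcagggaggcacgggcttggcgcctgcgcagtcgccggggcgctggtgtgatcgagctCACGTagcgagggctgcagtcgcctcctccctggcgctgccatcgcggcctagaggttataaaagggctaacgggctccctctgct
The window of *LOX* held 4 matches, all of ACGTG, that of *PLOD2* held 3 (2 of ACGTG and 1 of GCGTG) and that of *P4HA1* held 1. *PLOD1* had 2 matches, and the windows of *LOXL1*, *LOXL3*, *LOXL4* and *P4HA2* had none. For *LOXL3* (1 of 2 listed starts) and *P4HA2*, the start used did not lie at the outer end of the gene, so other windows of these genes were not searched. Of 35116 promoter windows of this length, 43.2% held a match, 7.76% held 3 or more and 3.22% held 4 or more. These are letter matches only, no binding was measured, and no relation between matches and expression was tested.

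The arrays of a group also differed in a way that recurred across groups. *TGM2* and *PLOD2* were lower on replicate 2 than on replicate 1 in all 4 groups, which held for 12.9% of all genes, and *PLOD1* and *P4HA2* were higher on replicate 2 in all 4, which held for 23.9%. For *TGM2* the difference, replicate 2 minus replicate 1, ran from -0.24 to -0.04, and for *P4HA2* from 0.08 to 0.34. The profiles of *PLOD1* and *P4HA2* correlated with r of 0.986 over the 8 arrays, which include these shared shifts. *PLOD2* was most like *LOX* among the members (r = 0.835), *LOXL4* most like *P4HA2* (r = 0.739) and *P4HA1* most like *PLOD2* (r = 0.31). For *PLOD2* the shift was -0.47 in WPMY-1 cells with vehicle and between -0.14 and -0.12 in the other groups, and its part in the Pao difference of *PLOD2* was not tested.

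**Figure D5:**
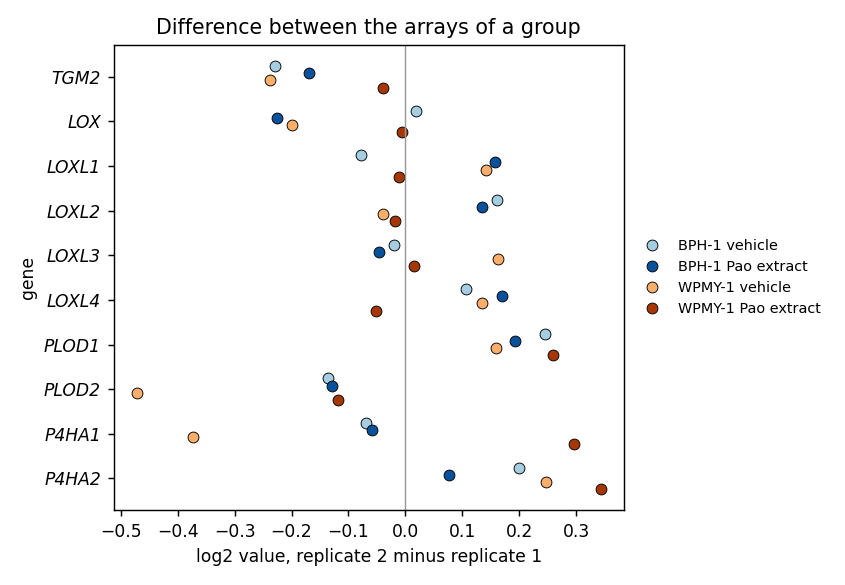
Difference of the log2 values of the 2 arrays of a group, replicate 2 minus replicate 1 (x axis), for each of the 10 genes (y axis); each point is 1 group. The 4 points of *TGM2* and *PLOD2* lie below 0 and those of *PLOD1* and *P4HA2* above 0, and the longest distance is that of *PLOD2* in WPMY-1 cells with vehicle (-0.47).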

How the data were processed

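Total RNA was hybridized to Affymetrix Human Transcriptome Array 2.0 chips. The authors deposited a table of log2 values for 67528 probe sets on 8 arrays, made with RMA (no version is stated). RMA corrects background, normalizes between arrays and summarizes probes, so shifts shared by most genes are largely removed. Names came from the annotation of the platform, which lists 23781 probe sets with 1 symbol and 1543 with several (left unnamed) and does not list 42204, and 21497 matched a RefSeq gene ID. Their genome build is not stated. Where a gene had several probe sets, the one that was brightest on average was kept, and no filter was applied.

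limma 3.58.1 (R 4.3.3) was used to fit the 4 group means on 8 arrays with moderated variances (eBayes), leaving 4 residual degrees of freedom. Adjusted p-values follow Benjamini and Hochberg over the 22465 genes of a comparison, and all tests were two-sided. The number of arrays limits the precision. The members and lists were chosen with earlier results of these data known. All 10 members are named, and genes of the pathway lists were taken from the 3 with the largest absolute difference between the lines or with Pao extract in either line; not all of them are named, and *PLOD3*, *P4HA3*, *P4HB*, *TLL2* and *ELN* were added with their values in view. The script was tested on simulated data. As alternatives, values were quantile normalized again or centred, dim genes were left out, other probe sets were chosen, the 4 arrays of a comparison were fitted alone, the variance model was changed, and a replicate block, the methods' t-test, a fold limit with no test and leaving out each array were tried.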

Additional observations from a re-analysis of the deposited data

Results flagged for a closer look

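The difference of the Pao effects for *TGM2*, WPMY-1 minus BPH-1, was 0.82 on the log2 scale. It was picked out because every treated array lay below the vehicle arrays in BPH-1 cells and above them in WPMY-1 cells. The difference was tested with limma and did not pass (adjusted p = 0.56 over all genes).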

How the results depend on the processing

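With the replicate block, *PLOD2* (-0.51) and *LOX* (-0.34) in WPMY-1 cells had an adjusted p of 0.069 and 0.093, *TGM2* in BPH-1 cells (-0.60) 0.17 and the *TGM2* difference of the Pao effects (0.82) 0.14, and no member's call changed. Arrays of 1 number deviated together (r = 0.50 in the BPH-1 line, 0.43 in the WPMY-1 line), but they share only a number. Over all genes the block called 98 higher and 125 lower in WPMY-1 cells, against 10 and 5 without it, and 3 and 0 against 0 and 0 in BPH-1. Centring left 3 higher and 0 lower in WPMY-1 and a fit of its 4 arrays 0 and 0. By a 1.4-fold limit with no test, 1 member passed in each of the BPH-1, WPMY-1 and difference comparisons. With values quantile normalized again, *PLOD2* in WPMY-1 cells was -0.41, short of that limit, and *LOX* was -0.29 there. The methods' t-test, which they do not tie to the arrays, called 0 of 10 line differences when adjusted over all genes. It called 0 members in each Pao comparison. Over all 22465 genes it called only 17 higher and 13 lower in the line comparison and 0 in each Pao comparison, so its counts say little about the members. The line difference called 6 to 8 members when single arrays were left out. Differences near 0 changed sign: after centring *LOXL2* was 0.021 and *PLOD1* 0.0024 in BPH-1, *P4HA1* -0.0091 and *PLOD1* -0.015 in WPMY-1, and after the second quantile normalization *LOXL2* was 0.034 in WPMY-1 and the line difference of *P4HA1* -0.029. Leaving out single arrays gave, in BPH-1, *LOX* -0.078 to 0.15, *LOXL1* -0.13 to 0.031, *LOXL2* -0.081 to 0.080, *LOXL4* -0.064 to 0.11, *P4HA2* -0.13 to 0.070, *PLOD1* -0.14 to 0.10 and *PLOD2* -0.11 to 0.022. In WPMY-1 it gave *LOXL1* -0.021 to 0.12, *LOXL3* -0.12 to 0.038, *P4HA1* -0.17 to 0.20, *P4HA2* -0.069 to 0.27 and *PLOD1* -0.12 to 0.14, and for the line difference *P4HA1* -0.18 to 0.19. The cause was not tested.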
